A study of Homo sapiens with 10 samples.

Results

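The genes described are 35 integrin and laminin chains, 25 integrin subunits and 10 laminin chains, chosen by name as a family, with earlier results of these data known. Of these, 33 had at least 1 probe set annotated to that gene alone, out of 19775 genes with such a probe set, and where a gene had several, the 1 with the highest average stood for it. Genes at or above log2 5 on at least 2 of the 10 arrays were tested, 29 of the 33 and 14929 in all. ITGA4 and ITGB8 stayed below that level on every array, and ITGA9 and ITGAL reached it on 1 array each (5.18 and 5.03), so that these 4 were not tested. ITGB6 had no probe set of its own, since each of its probe sets is also annotated to another gene, and LAMA3 was not analysed here. A chain that reached the level only in the lines where it is high passes more easily when it differs between lines. This holds for LAMA1, which stayed below log2 5 on every array of the parental line and of T2, lines described next. It also holds for ITGAM, which reached that level only on parental replicate 2 (5.4) and T3 replicate 1 (5.12).

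The cells were MDA-MB-231, an established and mesenchymal human cell line of triple-negative breast cancer, measured as 5 lines with 2 Affymetrix expression arrays each. The parental line was kept in culture and is labelled sensitive to SM-164, a Smac mimetic that blocks the IAP proteins. The 4 other lines are tumour cells isolated from MDA-MB-231 xenografts in SCID mice, immunodeficient mice that lack T and B cells, which had been given intravenous SM-164, 5 mg/kg per dose with 5 doses weekly for 2 weeks, had shrunk and had then regrown. T2 and T3 are labelled resistant, and T6 and T8 sensitive. Every tumour line had thus been through a mouse and the drug, and the parental line through neither, so that growth in the animal, the drug, regrowth and isolation cannot be told apart in a comparison with the parental line. Whether both arrays of a line stand for separate cultures is not given in the labels, and a p-value over arrays then reflects only how far those arrays differ, which may be technical.

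Integrins are cell surface receptors made of 1 alpha and 1 beta chain, and the pair decides which matrix protein a cell can hold. Laminins are cross-shaped proteins of the basement membrane made of an alpha, a beta and a gamma chain, and they are ligands of several integrins. In breast epithelium laminin and its receptors anchor the cell layer to the basement membrane, and carcinoma cells use the same receptors to attach, spread and signal through focal adhesions.

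The markers high in this line were high on every array, while those expected to be low were not all so. The mean of VIM, CD44, AXL and MET lay between log2 12.69 and 12.93. Of the genes low in this line, the line means ran from 4.51 to 5.4 for CDH1 and from 6.56 to 6.71 for ESR1, while EPCAM lay between 8.4 and 9.1, well above the level needed for testing. The mean of 6 leukocyte markers was 6.58 to 6.64 on the parental arrays and 6.13 to 6.52 on the tumour arrays, and PTPRC, which all leukocytes carry, stayed between 3.78 and 4.16. Arrays of the same line correlated at 0.997 to 0.999 and arrays of different lines at 0.984 to 0.997 over the genes. The arrays measured whole cell preparations, so that fewer cells with a transcript and less of it per cell cannot be told apart.

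The regions upstream of 4 of the genes are shown because these genes carry the patterns described below: ITGA1 was higher and ITGB5 lower in every tumour, and LAMB1 and LAMB3 took opposite courses from tumour to tumour. Each run is the 250 bases before the gene's start, from RefSeq on GRCh38.p14, 5′ to 3′ on the gene's own strand, with GC boxes (GGGCGG, or CCGCCC on the other strand) in capitals.
ITGA1, chr5:52787666-52787915, plus strand: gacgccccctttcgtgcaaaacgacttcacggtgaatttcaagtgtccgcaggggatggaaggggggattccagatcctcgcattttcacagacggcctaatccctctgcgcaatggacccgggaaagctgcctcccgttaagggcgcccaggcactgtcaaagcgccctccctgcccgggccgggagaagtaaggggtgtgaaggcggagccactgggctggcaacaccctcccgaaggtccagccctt
ITGB5, chr3:124901419-124901668, minus strand: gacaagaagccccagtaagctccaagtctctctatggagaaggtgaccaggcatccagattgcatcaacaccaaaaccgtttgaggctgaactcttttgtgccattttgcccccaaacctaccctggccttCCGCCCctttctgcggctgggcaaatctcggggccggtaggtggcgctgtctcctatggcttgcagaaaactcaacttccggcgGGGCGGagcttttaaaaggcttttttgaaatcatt
LAMB1, chr7:108003162-108003411, minus strand: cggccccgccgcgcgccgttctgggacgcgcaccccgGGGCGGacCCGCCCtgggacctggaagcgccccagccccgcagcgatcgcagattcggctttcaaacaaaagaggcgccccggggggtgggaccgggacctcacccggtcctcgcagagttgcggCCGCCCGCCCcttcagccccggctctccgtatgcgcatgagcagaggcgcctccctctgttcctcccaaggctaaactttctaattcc
LAMB3, chr1:209652426-209652675, minus strand: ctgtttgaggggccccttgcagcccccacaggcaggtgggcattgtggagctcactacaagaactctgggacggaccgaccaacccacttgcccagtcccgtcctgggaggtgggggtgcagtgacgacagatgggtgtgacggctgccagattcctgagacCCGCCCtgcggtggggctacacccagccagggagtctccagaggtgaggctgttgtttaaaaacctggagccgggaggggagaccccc

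LAMB1 held 4 GC boxes, of which the last pair overlap, ITGB5 held 2, LAMB3 held 1 and ITGA1 none. None of the 4 windows held an AP-1 site (TGAGTCA, or TGACTCA on the other strand) or a TATA box (TATAAA, or TTTATA). Of 27305 windows of the same length upstream of genes, 42.2% held a GC box, 4.15% an AP-1 site and 11.2% a TATA box. Over the integrin and laminin genes 25 had a window in the table, and 13 of these held a GC box, 1 an AP-1 site and 1 a TATA box. A match is a match of letters in this window and no measure of binding. On the same build LAMB1 lies at chr7:107923799-108003161, LAMB3 at chr1:209614870-209652425, ITGB5 at chr3:124761948-124901418, ITGA1 at chr5:52787916-52959209, ITGB4 at chr17:75721459-75757818 and ITGB2 at chr21:44885953-44928815.

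In the mean of the 4 tumours against the parental line, 15 of the 29 tested chains changed at an adjusted p under 0.05, which is 51.7% of them, against 42.3% of all genes tested. 7 were higher (24.1%, against 25.5% of all genes): ITGA1, ITGAE, ITGB2, LAMA1, LAMA5, LAMB1 and LAMB2. 8 were lower (27.6%, against 16.8%): ITGA2, ITGA3, ITGA10, ITGAV, ITGAM, ITGB4, ITGB5 and LAMB3. The median difference was -0.1 over the tested chains and 0 over all genes, and the median size, whatever its sign, was 0.26 and 0.18. 5 chains changed by at least log2 0.5 (17.2%, against 11.4% of all genes), namely ITGA1, ITGB2, LAMA1, ITGB4 and ITGB5. LAMA1 is counted here and among the 7 higher, though it reached the level needed for testing only in T3, T6 and T8, where it is high. ITGAM is counted among the 8 lower, though in the tumours it reached that level only on T3 replicate 1. Of all genes called, 60.2% were higher in the tumours; the share was 48.3% when quantile normalisation was repeated and 71.9% when array medians were centred, and the chains then split into 6 higher and 10 lower, or 7 higher and 6 lower. These p-values rest on the spread between arrays of a line: with the 4 tumours as replicates against the 1 parental mean, limma called none of the 29 chains (195 of 14929 genes, 1.31%), and ITGA1, ITGAE and ITGB5 alone had an unadjusted p under 0.05, as 16.6% of all genes did.

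**Figure D1:**
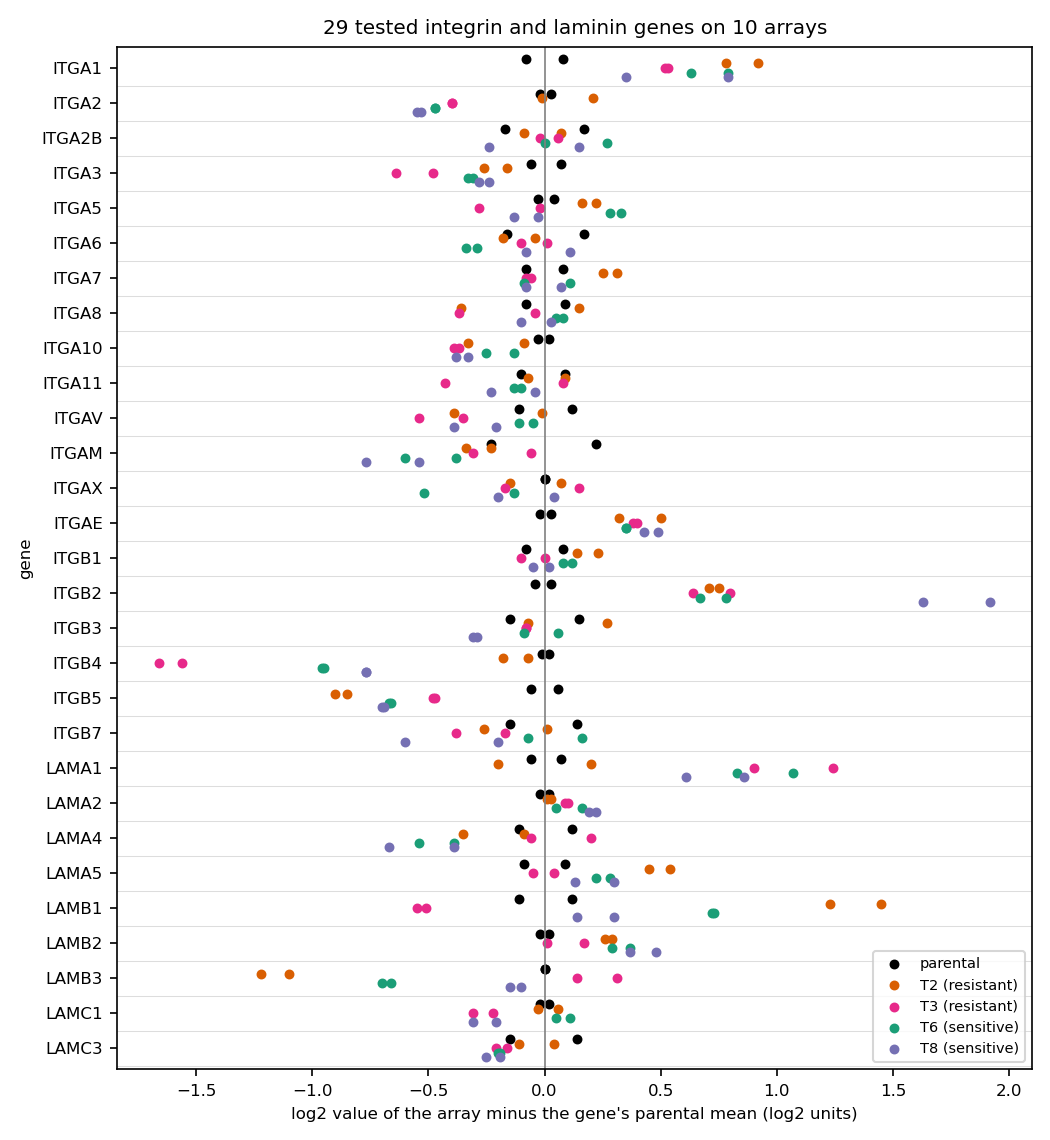
Each point is 1 array of a tested gene; the horizontal axis is its log2 value minus the mean of the 2 parental arrays of that gene, and colour gives the line. The T8 points of ITGB2 stand far to the right of its other tumours, and LAMB1 and LAMB3 have tumours on both sides of the parental points.

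Among the collagen-binding alpha chains, 1 of 4 rose and 2 fell. ITGA1, which with ITGB1 makes a receptor for collagen IV and laminin, measured 6.06 and 5.9 on the parental arrays, 6.76 and 6.9 in T2, 6.5 and 6.51 in T3, 6.77 and 6.61 in T6 and 6.77 and 6.33 in T8. Every tumour array lay above both parental arrays. The mean difference was 0.66 ± 0.11 on the log2 scale (SE), 1.58-fold (adjusted p = 0.00021), and the chain was called higher in each tumour alone, from 0.52 in T3 to 0.85 in T2. ITGA2, the alpha chain of an epithelial and platelet receptor for fibrillar collagen, measured 10.34 and 10.39 in the parental cells and 10.35 and 10.57 in T2. It measured 9.96 on both arrays of T3, 9.89 on both of T6, and 9.81 and 9.83 in T8. T2 kept the parental level and the 3 other tumours lay below it: the difference from parental was 0.1 ± 0.07 in T2 (adjusted p = 0.345), -0.4 in T3, -0.47 in T6 and -0.54 in T8, the last 3 called. ITGA10 fell by 0.28 ± 0.1 (adjusted p = 0.0308), and ITGA11 differed by -0.1 ± 0.12 (adjusted p = 0.551); their levels ran from 5.54 to 6.18 over the arrays, not far above the level needed for testing.

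Among the 3 laminin-binding alpha chains 1 fell and none rose. ITGA3, which pairs with ITGB1 and binds the laminins of epithelial basement membrane, measured 11.05 and 10.92 in the parental cells, 10.72 and 10.82 in T2, 10.34 and 10.5 in T3, 10.65 and 10.67 in T6 and 10.74 and 10.7 in T8. Every tumour array lay below both parental arrays, T3 the lowest. The difference was -0.34 ± 0.06 (adjusted p = 0.000226), and it was called in each tumour. ITGA6, the laminin receptor chain that pairs with ITGB1 or ITGB4, measured 11.59 and 11.26 in the parental cells, 11.24 and 11.38 in T2, 11.32 and 11.43 in T3, 11.13 and 11.08 in T6 and 11.53 and 11.34 in T8. Parental and tumour arrays overlapped in all but T6, which lay below every other array. The difference over the tumours was -0.12 ± 0.08 (adjusted p = 0.231), and in T6 alone -0.32 ± 0.1 (adjusted p = 0.0176). The mean over tumours was called under 2 alternatives, -0.23 with quantile normalisation repeated and -0.28 without parental replicate 2. ITGA7, the laminin receptor chain of muscle, lay between 5.55 and 5.95 and differed by 0.05 ± 0.1 (adjusted p = 0.727).

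Of the 4 alpha chains that bind the RGD motif in fibronectin, vitronectin and fibrinogen, 1 fell. ITGAV, the alpha chain of the vitronectin receptors, measured 10.74 and 10.51 in the parental cells, 10.23 and 10.61 in T2, 10.08 and 10.27 in T3, 10.57 and 10.51 in T6 and 10.41 and 10.23 in T8. T3 and T8 lay below both parental arrays, while T2 and T6 overlapped them. The difference was -0.26 ± 0.09 (adjusted p = 0.0287); it was no longer called without parental replicate 1 (-0.15, adjusted p = 0.315), without T6 replicate 2 or T8 replicate 2 (adjusted p = 0.0519 and 0.0509), with array medians centred (-0.2, adjusted p = 0.166), or in fits without a trend (adjusted p = 0.0797). ITGA5, the alpha chain of the fibronectin receptor, measured 9.12 and 9.19 in the parental cells, 9.37 and 9.31 in T2, 8.87 and 9.13 in T3, 9.43 and 9.48 in T6 and 9.12 and 9.02 in T8. The arrays of T2 and T6 stood above the parental ones and those of T3 and T8 reached no higher than 9.13, so that the mean difference was 0.06 ± 0.07 (adjusted p = 0.488); T6 alone was called, at 0.3 ± 0.09 (adjusted p = 0.0151). ITGA8 and ITGA2B, the latter a platelet receptor chain, lay between 5.36 and 5.93 and differed by -0.08 and 0.02, with neither called.

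ITGA4 and ITGA9, related alpha chains that bind VCAM1, fibronectin and tenascin, lay between 3.69 and 5.18 on the arrays and were not tested. Among the 4 leukocyte alpha chains 3 were tested, and 1 rose and 1 fell. ITGAE, which on intraepithelial T cells pairs with ITGB7 and binds E-cadherin, measured 11.23 and 11.18 in the parental cells, 11.52 and 11.7 in T2, 11.58 and 11.6 in T3, 11.55 on both arrays of T6, and 11.63 and 11.69 in T8. All tumour arrays lay above the parental ones, by 0.4 ± 0.05 on average (adjusted p = 1.8e-05), and each tumour alone was called, from 0.34 to 0.46. Its partner ITGB7 lay between 5.93 and 6.69 and differed by -0.18 ± 0.13 (adjusted p = 0.263). ITGAM, a myeloid chain that pairs with ITGB2, measured 4.95 and 5.4 in the parental cells and 4.41 to 5.12 in the tumours, close to the level needed for testing, and fell by 0.4 ± 0.13 (adjusted p = 0.0267). The other tested probe set of ITGAM gave -0.12 ± 0.13 (adjusted p = 0.504). On it T2, at 5.04, lay above the parental mean of 4.81 and the other tumours below it. ITGAX, likewise a partner of ITGB2, differed by -0.11 ± 0.13 (adjusted p = 0.536).

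Of the 6 beta chains tested, 1 rose and 2 fell. ITGB1, the shared partner of most alpha chains, measured 13.42 and 13.26 in the parental cells, 13.48 and 13.57 in T2, 13.24 and 13.34 in T3, 13.46 and 13.42 in T6 and 13.36 and 13.29 in T8. Only the T2 arrays stood clear of both parental arrays, and the mean difference was 0.05 ± 0.05 (adjusted p = 0.401); T2 alone was called, at 0.18 ± 0.06 (adjusted p = 0.0332). ITGB2, the leukocyte beta chain, measured 7.23 and 7.16 in the parental cells, 7.95 and 7.91 in T2, 7.84 and 8 in T3, 7.87 and 7.98 in T6 and 9.12 and 8.83 in T8. All tumour arrays exceeded the parental ones, with T2, T3 and T6 together and T8 well above them. The mean difference was 0.99 ± 0.08, 1.99-fold (adjusted p = 2.48e-07), made of 0.73 in T2, 0.72 in T3, 0.73 in T6 and 1.78 ± 0.11 in T8, which is 3.42-fold (adjusted p = 9.71e-09). Of the leukocyte markers, in T8 PTPRC was at 3.92 and 4.05, CD14 at 6.08 and 5.88, and LAPTM5, a lysosomal protein of blood cells, at 10.56 and 10.68. LAPTM5 and CD14 were, like ITGB2, highest in T8 among the tumours: LAPTM5 averaged 10.62 there against 10.14 in T2, 9.2 in T3 and 10.22 in T6 (T6 minus T8 -0.41, adjusted p = 0.00124), and CD14 5.98 against 5.58, 5.36 and 5.7 (T6 minus T8 -0.28, adjusted p = 0.163; T3 minus T8 -0.62, adjusted p = 0.00351). Against the parental line, which had the lower ITGB2, LAPTM5 was no higher in T8 (10.66 in parental cells), and CD14 was at 5.75 there. CSF1R, CD3E and AIF1 averaged 4.9, 6.49 and 6.5 in T8, each below the values of T2 and T3. The mean of the 6 markers was 6.41 in T8, 6.44 in T2, 6.22 in T3, 6.29 in T6 and 6.61 in the parental line, and the part of such cells in the ITGB2 result was not tested. The alpha chains that pair with ITGB2 were at the edge of detection in T8, ITGAL with 4.7 and 4.92, ITGAM with 4.41 and 4.64 and ITGAX with 4.8 and 5.04.

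ITGB4, which with ITGA6 forms the laminin receptor of hemidesmosomes, measured 9.63 and 9.6 in the parental cells, 9.54 and 9.43 in T2, 8.05 and 7.95 in T3, 8.65 and 8.66 in T6, and 8.84 on both arrays of T8. T2 lay just under the parental arrays, while T3, T6 and T8 were far below them and did not overlap one another. The difference was -0.87 ± 0.06 over the tumours (adjusted p = 3.48e-08), and by tumour it was -0.13 ± 0.08 in T2 (adjusted p = 0.235), -1.61 ± 0.08 in T3, 3.05-fold lower (adjusted p = 7.07e-10), -0.96 in T6 and -0.78 in T8. ITGB5, the vitronectin receptor chain that pairs with ITGAV, measured 11.18 and 11.06 in the parental cells, 10.22 and 10.27 in T2, 10.64 and 10.65 in T3, 10.45 and 10.46 in T6 and 10.42 and 10.43 in T8. All tumours were below the parental line, T2 the lowest and T3 the highest of them on this probe set; on another, at 7.15 to 7.77, all tumours were again lower but T2 was the highest of them. The difference was -0.68 ± 0.05, 1.6-fold lower (adjusted p = 6.18e-08), and each tumour was called. ITGB3, the beta chain of the platelet and endothelial vitronectin receptors, differed by -0.08 ± 0.11 (adjusted p = 0.597) on the probe set that stood for it. ITGB8, a beta chain that pairs with ITGAV and activates TGF-beta, lay between 3.31 and 4.72 and was not tested.

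**Figure D2:**
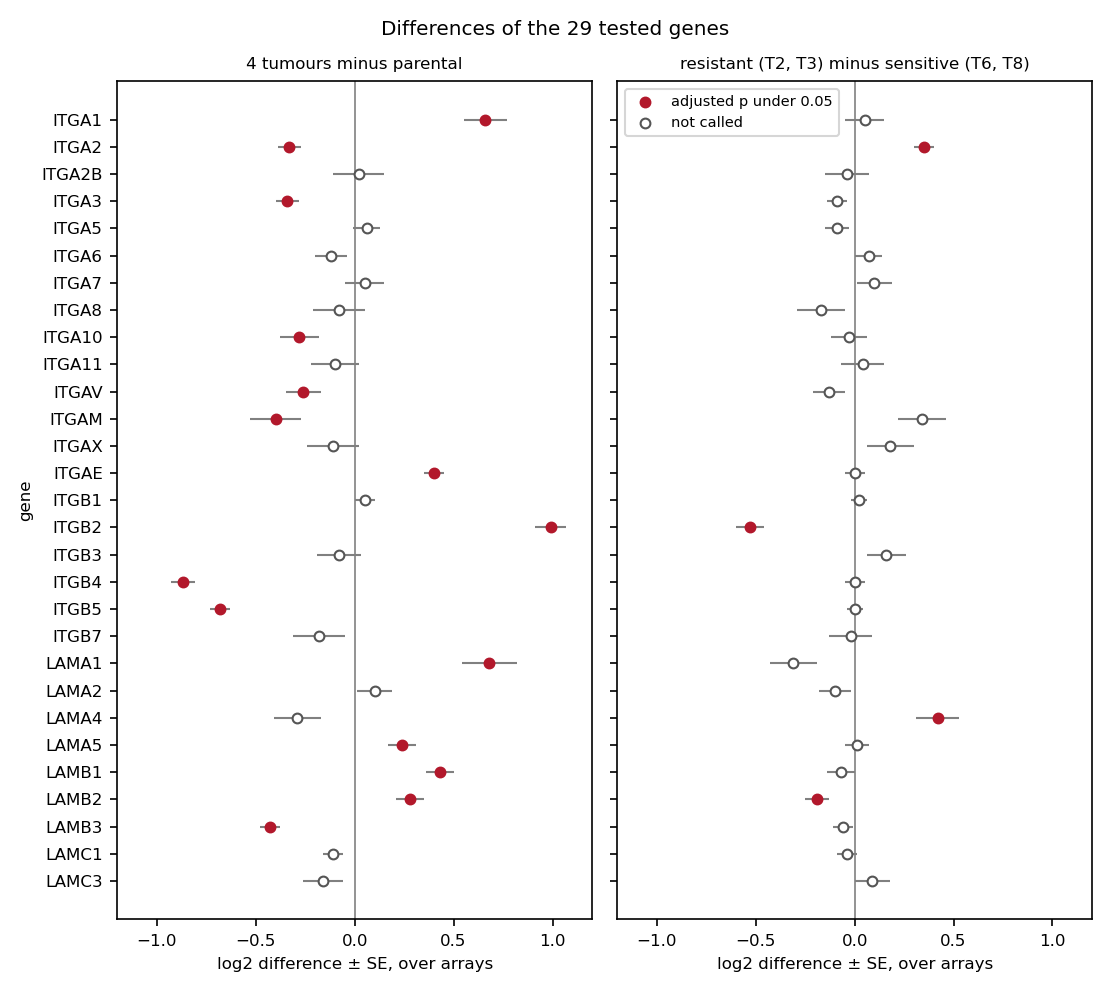
Log2 differences with their standard errors over arrays for the 29 tested genes, on the left the mean of 4 tumours minus parental and on the right resistant minus sensitive tumours; filled points have an adjusted p under 0.05. The left panel has 15 filled points and the right panel 4.

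Of the laminin alpha chains 2 of the 4 tested rose. LAMA1, the alpha chain of the laminin of early embryonic basement membranes, measured 4.34 and 4.47 in the parental cells, 4.6 and 4.2 in T2, 5.3 and 5.64 in T3, 5.47 and 5.23 in T6 and 5.01 and 5.26 in T8. The parental and T2 arrays overlapped below log2 5, and the 3 other tumours lay above them. The mean difference was 0.68 ± 0.14 (adjusted p = 0.000964), with 0 ± 0.17 in T2 (adjusted p = 0.991), 1.07 in T3, 0.94 in T6 and 0.73 in T8; so close to background a log2 difference may understate a change in transcript. LAMA5, the alpha chain of most adult epithelial basement membranes, measured 9.61 and 9.43 in the parental cells, 10.06 and 9.97 in T2, 9.47 and 9.56 in T3, 9.74 and 9.8 in T6 and 9.82 and 9.65 in T8. T2 was the highest and T3 overlapped the parental arrays. It rose by 0.24 ± 0.07 (adjusted p = 0.00873), from 0 in T3 to 0.49 in T2. LAMA4, the alpha chain of vascular and mesenchymal laminins, measured 6.17 and 6.4 in the parental cells, 6.19 and 5.93 in T2, 6.22 and 6.48 in T3, 5.89 and 5.74 in T6 and 5.61 and 5.89 in T8. T2 and T3 overlapped the parental arrays while T6 and T8 lay below them. The difference over the tumours was -0.29 ± 0.12 (adjusted p = 0.0595), a value that another probe set of the gene turned, as given further on. LAMA2, the muscle laminin alpha chain, differed by 0.1 ± 0.09 (adjusted p = 0.365).

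All 3 laminin beta chains changed, LAMB1 and LAMB2 upward and LAMB3 downward. LAMB1, the most widespread beta chain, measured 9.38 and 9.15 in the parental cells, 10.49 and 10.71 in T2, 8.71 and 8.75 in T3, 9.99 and 9.98 in T6 and 9.56 and 9.4 in T8. No 2 tumours overlapped, and T3 alone lay below the parental arrays. The mean difference of 0.43 ± 0.07 (adjusted p = 0.000279) joined 1.34 ± 0.09 in T2, 2.52-fold higher (adjusted p = 5.2e-08), 0.72 in T6, 0.21 ± 0.09 in T8 (adjusted p = 0.0816) and -0.54 ± 0.09 in T3, 1.45-fold lower (adjusted p = 0.000381). LAMB3, the beta chain of the laminin that epithelia lay down beneath hemidesmosomes, measured 11.55 on both parental arrays, 10.45 and 10.33 in T2, 11.69 and 11.86 in T3, 10.85 and 10.89 in T6 and 11.45 and 11.4 in T8. Its order was the reverse of that of LAMB1: T2 was lowest, then T6, then T8, and T3 stood above the parental arrays. The mean difference was -0.43 ± 0.05 (adjusted p = 1.48e-05), with -1.16 ± 0.07 in T2, 2.23-fold lower (adjusted p = 7.22e-09), -0.68 in T6, -0.12 ± 0.07 in T8 (adjusted p = 0.158) and 0.23 ± 0.07 in T3 (adjusted p = 0.0155). LAMB1 and LAMB3 were the chains called higher in 1 tumour and lower in another, 6.9% of those tested, against 4.16% of all genes. LAMB2, the beta chain of muscle and kidney basement membrane, lay between 8.46 and 8.96 and rose by 0.28 ± 0.07 (adjusted p = 0.00315).

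Neither of the 2 gamma chains was called. LAMC1, the gamma chain of most laminins, measured 10.79 and 10.83 in the parental cells, 10.78 and 10.87 in T2, 10.5 and 10.59 in T3, 10.92 and 10.86 in T6 and 10.6 and 10.5 in T8. T2 and T6 stayed near the parental level, and T3 and T8 fell below it by 0.27 and 0.26 (adjusted p = 0.00509 and 0.00592). The other tested probe set did not show this for T3, with means of 10.15 in the parental cells, 10.05 in T2, 10.2 in T3, 10.14 in T6 and 10.06 in T8. Over the 4 tumours the difference was -0.11 ± 0.05 (adjusted p = 0.106), and it was called with quantile normalisation repeated (-0.2, adjusted p = 0.00157). LAMC3 lay between 6.43 and 6.82 and differed by -0.16 ± 0.1 (adjusted p = 0.206).

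**Figure D3:**
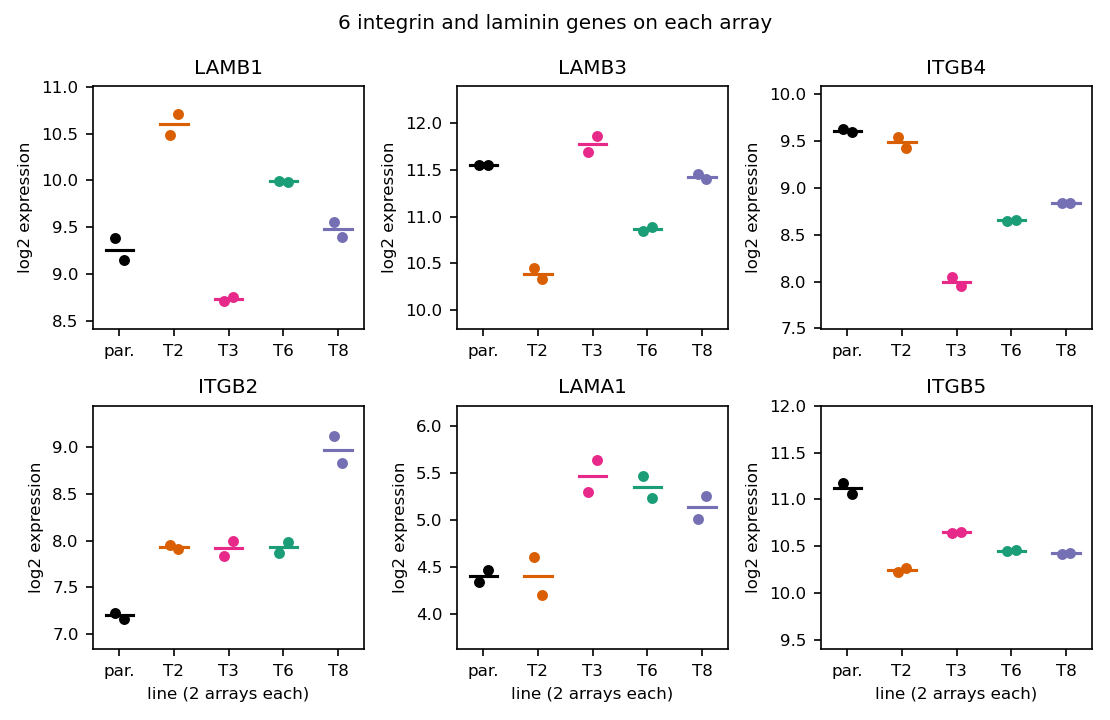
Log2 expression on each array (points) and the mean of each line (bars) for 6 genes; every panel spans the same number of log2 units. LAMB1 and LAMB3 run in opposite orders over the tumours, ITGB4 keeps the parental level in T2, and ITGB2 stands at 9.12 and 8.83 in T8.

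Each tumour was also set against the parental line alone, a set of comparisons that share the parental arrays. T2 differed in 10 of the 29 chains (34.5%, against 33% of all genes), with 7 higher (24.1%, against 17.5%) and 3 lower (10.3%, against 15.5%). T3 differed in 13 (44.8%, against 37.9%), with 5 higher (17.2%, against 22.1%) and 8 lower (27.6%, against 15.8%). T6 differed in 16 (55.2%, against 34.5%), with 8 higher (27.6%, against 20.7%) and 8 lower (27.6%, against 13.7%). T8 differed in 15 (51.7%, against 43.8%), with 6 higher (20.7%, against 28.7%) and 9 lower (31%, against 15.1%). Without T6 replicate 1 the count in T6 was 10. ITGA1, ITGAE and ITGB2 were called higher in every tumour, 10.3% of the chains tested, against 8.87% of all genes. ITGA3 and ITGB5 were called lower in every tumour, 6.9%, against 5.41%. In T2 the called chains included LAMA5, LAMB1, LAMB2 and ITGB1 upward and LAMB3 and ITGB5 downward. In T3 they included LAMA1 and LAMB3 upward and ITGB4, ITGA2, ITGAV, LAMB1 and LAMC1 downward.

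The resistant tumours T2 and T3 were compared with the sensitive tumours T6 and T8. With tumours as replicates, limma called none of the 29 chains and none of the 14929 genes, and the smallest adjusted p of a chain was 0.894. ITGAM and LAMA4 alone passed an unadjusted threshold of 0.05, 6.9% of the chains, against 4.43% of all genes; they were 0.34 ± 0.09 and 0.42 ± 0.13 higher in the resistant tumours, with the standard error over tumours. ITGAM reached the level needed for testing on an array of T3 and of the parental line, and on no sensitive array. A fit with the line as a random block called 4 genes and no chain. Over arrays, which tests these particular tumours and not the classes, 4 of the 29 chains differed (13.8%, against 19% of all genes): ITGA2 and LAMA4 were higher and ITGB2 and LAMB2 lower in the resistant pair. The count was 2 without T6 replicate 2 and 2 without T8 replicate 1. 1 chain, ITGB2, differed by at least log2 0.5 (3.45%, against 1.52% of all genes). By direction, 2 were higher (6.9%, against 4.76% of all genes) and lower in 2 (6.9%, against 14.2%). The median difference was 0 over the chains and -0.02 over all genes.

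The arrays behind these 4 calls show how each of them came about. ITGA2 was 0.35 ± 0.05 higher in the resistant pair (adjusted p = 0.000485); its level was 10.46 in T2 and 9.96 in T3, the latter next to 9.89 in T6 and 9.82 in T8. ITGB2 was 0.53 ± 0.07 lower (adjusted p = 0.000324 for a difference of -0.53), where T2, T3 and T6 averaged 7.93, 7.92 and 7.93, and T8 alone stood at 8.97. LAMA4 was 0.42 ± 0.11 higher (adjusted p = 0.0132), with 6.06 and 6.35 in the resistant and 5.82 and 5.75 in the sensitive tumours, and every resistant array lay above every sensitive one. Its adjusted p was 0.0529 without T2 replicate 1, 0.0674 without T6 replicate 2 and 0.067 without T8 replicate 1. LAMB2 differed by -0.19 ± 0.06 (adjusted p = 0.0351), with 8.76 and 8.57 against 8.81 and 8.91. For the chains that varied most between tumours the mean of the classes was nearly the same: the difference was 0 for ITGB4 with a standard error over tumours of 0.5, -0.07 with 0.64 for LAMB1 and -0.06 with 0.5 for LAMB3.

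Differences among the 4 tumours, whatever their class, were found in 15 of the 29 chains (51.7%, against 41.7% of all genes). The median range of the tumour means was 0.35 over the chains and 0.3 over all genes. Between the resistant tumours T2 and T3, 12 chains differed (41.4%, against 30.8%), 9 of them higher in T2 (31%, against 13.9% of all genes) and 3 lower (10.3%, against 16.9%). LAMB1 was 1.87 ± 0.09 higher in T2 than in T3, 3.66-fold (adjusted p = 1.92e-09), and ITGB4 was 1.48 ± 0.08 higher, 2.79-fold (adjusted p = 2.61e-09). LAMB3 took the other direction, with a difference of -1.39 ± 0.07, 2.62-fold lower in T2 (adjusted p = 1.5e-09), as did LAMA1 with -1.07 ± 0.17 (adjusted p = 0.000214) and ITGB5 with -0.4 ± 0.06 (adjusted p = 0.000166). ITGA2, ITGA3, ITGA5, ITGA7, ITGB1, LAMA5 and LAMC1 were the others higher in T2, by 0.23 to 0.5. Differences of at least log2 0.5 were called in 5 chains (17.2%, against 12.7%), among them LAMA1, which reached the level needed for testing in T3 but not in T2.

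Between the sensitive tumours T6 and T8, 6 chains differed (20.7%, against 15.1% of all genes), with 3 higher in T6 (10.3%, against 4.66%) and 3 lower (10.3%, against 10.4%), and 3 past log2 0.5 (10.3%, against 3.83%); the count was 3 without T6 replicate 1 and 3 with array medians centred. ITGB2 was lower in T6 by 1.05 ± 0.11 for a difference of -1.05 (adjusted p = 2.03e-05). LAMB3 differed by -0.56 ± 0.07 (adjusted p = 0.000115) and ITGA6 by -0.33 ± 0.1 (adjusted p = 0.0287), while LAMB1 was 0.51 ± 0.09 (adjusted p = 0.00213), ITGA5 0.39 ± 0.09 (adjusted p = 0.00788) and LAMC1 0.34 ± 0.07 (adjusted p = 0.00327) higher in T6. LAMB1, LAMB3, ITGA5 and LAMC1 were called both between the resistant and between the sensitive tumours. Across the classes, 5 chains differed between T2 and T6 (17.2%, against 9.46% of all genes), 12 between T2 and T8 (41.4%, against 31.8%), 12 between T3 and T6 (41.4%, against 25%) and 8 between T3 and T8 (27.6%, against 18.4%). LAMB1, LAMB3 and ITGB4 were called in all 4 of these pairs.

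**Figure D4:**
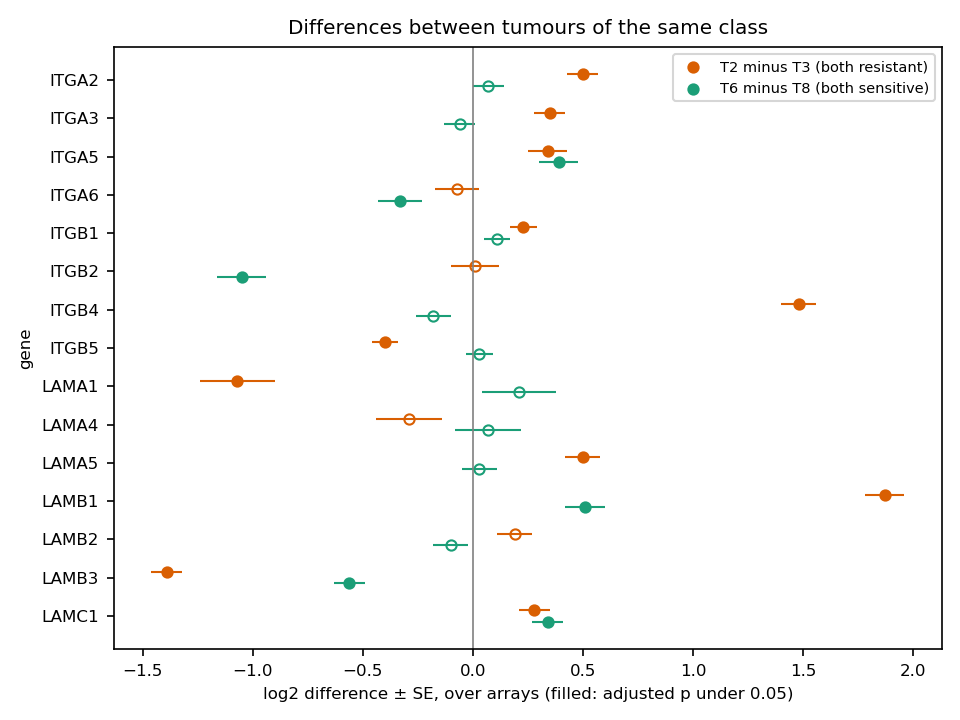
Differences between tumours of the same class with their standard errors over arrays, for the 15 genes that differed among the tumours: T2 minus T3 and T6 minus T8, filled where the adjusted p was under 0.05. LAMB1 lies at 1.87 and 0.51, and LAMB3 at -1.39 and -0.56.

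The order T2, T6, T8, T3 seen in LAMB1 was looked for in the other chains and in the genes of the pathway after it had been seen, and is given as a description. ITGB1, LAMA5 and LAMB1 differed among the tumours with means falling in that order (10.3% of the chains tested, against 5.09% of all genes), and LAMB3 with means rising (3.45%, against 6.64%). The 10.3% counts LAMB1, from which the order was taken, so that these shares cannot show an excess. Of 70 other tested genes of the adhesion pathway listed next, 15 fell in that order (5.09% of all genes), among them the laminin partners AGRN, COL4A1 and NTN4, the syndecan SDC2 and the focal adhesion genes VCL, SRC and TNS4. 4 rose in it (6.64% of all genes): the ligands FN1 and TNC, CD47 and SDC1. Only a difference among the tumours was tested and not the order of the means, and some steps were small. COL4A1 differed by 0.04 between T2 and T6 (adjusted p = 0.808) and by 0.03 between T6 and T8 (adjusted p = 0.868). LAMA5 differed by 0.03 between T6 and T8 (adjusted p = 0.858). TNC, tenascin-C, a matrix glycoprotein that binds several integrins, measured 7.15 and 7.18 in the parental cells, 5.94 and 6.12 in T2, 9.43 and 9.63 in T3, 7.07 and 7.17 in T6 and 7.85 and 7.55 in T8. No tumour overlapped another, and the difference of T2 from T3 was -3.5 ± 0.12 (adjusted p = 3.09e-11).

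Around the receptors, 10 of 12 listed regulators and adaptors of integrins, not all of them activators, were measured and tested. In the tumours 6 were higher and 1 lower, where 25.5% of all genes were higher and 16.8% lower. Their median difference was 0.23 against 0 over all genes. APBB1IP, the RAP1 effector that brings talin to integrins, measured 9.55 and 9.48 in the parental cells, 9.83 and 9.99 in T2, 10.7 and 10.81 in T3, 10.72 on both arrays of T6 and 11.02 and 11.05 in T8. Every tumour array exceeded the parental ones, by 1.1 ± 0.06 on average (adjusted p = 1.06e-09). FERMT2, the kindlin of mesenchymal cells, rose by 0.67 ± 0.06 and ITGB1BP1, which competes with talin for the tail of ITGB1, by 0.47 ± 0.05, while the talin TLN2 fell by 0.38 ± 0.09. Between the classes over arrays 2 of the 10 were higher and 2 lower in the resistant pair (4.76% and 14.2% of all genes), among them APBB1IP at -0.54 ± 0.05, with T2 lowest.

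Of 26 listed focal adhesion genes 24 were tested, and 7 rose and 3 fell in the tumours (25.5% and 16.8% of all genes), with a median of -0.01. TGFB1I1, a paxillin relative, rose by 0.84 ± 0.08, the scaffold NEDD9 by 0.73 ± 0.12 and the kinase CSK, an inhibitor of SRC kinases, by 0.36 ± 0.06. NEDD9 did not rise in T3, where it differed from parental by 0.02 (adjusted p = 0.942). The tensins TNS3 and TNS4 fell by 0.74 ± 0.07 and 0.57 ± 0.07 and vinculin, VCL, by 0.22 ± 0.05. In T2, TNS4 and VCL did not fall, with differences from parental of 0.09 and 0.01 (adjusted p = 0.502 and 0.948). In the resistant pair 1 was higher and 5 lower over arrays (4.76% and 14.2% of all genes), with PARVA at -0.45 ± 0.05, TGFB1I1 at -0.33 ± 0.07, the focal adhesion kinase PTK2 at -0.27 ± 0.07 and TNS4 at 0.2 ± 0.06. Among the tumours TGFB1I1 was low in T3 alone, at 9.85 against 10.56 in T2, 10.54 in T6 and 10.53 in T8. For TNS4 the resistant pair held the highest tumour, T2 at 8.86, and the lowest, T3 at 7.74. For PARVA and PTK2 both resistant means lay below both sensitive ones, but for neither gene was T2 called against T6. For PTK2, T3 at 10.82 lay beside T6 at 10.84 (T3 minus T6 -0.02, adjusted p = 0.903), and T8 was highest at 11.11. Between T2 and T3, 11 of the 24 were called higher in T2 and 1 lower (13.9% and 16.9% of all genes), led by NEDD9 at 1.45 and TNS4 at 1.12.

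Of 17 other listed matrix receptors and membrane partners of integrins 14 were tested, and 6 rose and 4 fell (25.5% and 16.8% of all genes), with a median of 0.07. SDC2, a heparan sulphate receptor, rose by 0.82 ± 0.07, the tetraspanin CD9 by 0.45 ± 0.04 and DST, which links hemidesmosomes to intermediate filaments, by 0.34 ± 0.07. The tetraspanin CD82 fell by 0.91 ± 0.06, the hemidesmosome linker PLEC by 0.3 ± 0.07 and CD47 by 0.27 ± 0.05. CD47 did not fall in T3, where it differed from parental by 0.07 (adjusted p = 0.349). DST and PLEC, both partners of ITGB4, thus moved in opposite directions. In the resistant pair CD44 (0.22), CD151 (0.16) and SDC1 (0.15) were higher and CD82 (-0.35) and CD9 (-0.19) lower over arrays, where 4.76% of all genes were higher and 14.2% lower. CD82 and CD9 were low in T3 alone among the tumours. CD82 averaged 8.87 in T3 against 9.59 in T2, 9.6 in T6 and 9.56 in T8, and CD9 12.63 against 12.99, 12.95 and 13.05. SDC1 was high in T3 alone, at 10.58 against 10.15 in T2, 10.19 in T6 and 10.23 in T8. For CD44 and CD151 both resistant means lay above both sensitive ones. CD44 in T2 was called against neither T6 nor T8, and CD151 differed by 0.04 between T3 and T6 (adjusted p = 0.714).

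Of 12 listed partners of laminin in the basement membrane 9 were tested, and 4 rose and 2 fell (25.5% and 16.8% of all genes), with a median of 0.01. FRAS1, an epithelial basement membrane protein, rose by 1.29 ± 0.09 and NTN4, a netrin that binds laminin gamma chains, by 1.28 ± 0.09, and COL4A1, a chain of type IV collagen, by 0.7 ± 0.07. COL4A5 fell by 0.42 ± 0.09 and perlecan, HSPG2, by 0.28 ± 0.07. The fall of COL4A5 came from T3 and T8, at 6.3 and 6.38 against 7.37 in the parental cells. T2 and T6 were at 7.51 and 7.6 and not called. FRAS1 was 0.37 ± 0.08 higher and COL4A1 0.26 ± 0.06 lower in the resistant pair, the latter a difference of -0.26. For FRAS1 both resistant means lay above both sensitive ones, but neither was called against T6. T2 minus T6 was 0.35 (adjusted p = 0.0774) and T3 minus T6 was 0.22 (adjusted p = 0.221). Among the tumours COL4A1 was low in T3 alone, at 9.46 against 10.1 in T2, 10.06 in T6 and 10.02 in T8. Between T2 and T3, 6 of the 9 were called higher in T2 and 0 lower (13.9% and 16.9% of all genes), led by NTN4 at 1.25 and COL4A5 at 1.21.

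Of 16 listed ligands of integrins 13 were tested, and 8 rose and 1 fell (25.5% and 16.8% of all genes), with a median of 0.43. The fibrillin FBN1 rose by 0.96 ± 0.07, LTBP1, a latent TGF-beta binding protein, by 0.94 ± 0.07 and EDIL3, a ligand of ITGAV receptors, by 0.83 ± 0.05. VCAM1, the ligand of ITGA4, fell by 0.97 ± 0.13, to line means of 4.34 to 5.06 from 5.58. Over arrays 3 ligands were higher and 4 lower in the resistant pair (4.76% and 14.2% of all genes), with LTBP1 (0.46), TNC (0.37) and FBN1 (0.33) highest and CCN2 (-0.4), ICAM1 (-0.31) and ICAM2 (-0.18) lowest. For TNC the resistant pair held both the highest tumour, T3, and the lowest, T2. Among the tumours LTBP1 and FBN1 were highest in T2, and CCN2 and ICAM1 lowest there, with T3 between T6 and T8 each time. ICAM2 averaged 9.85 in T2 and 9.83 in T3, beside 9.82 in T6. ICAM1 and ICAM2, the ligands of ITGB2 receptors, were highest in T8, as ITGB2 was, with means of 9.02 and 10.23.

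Several chains were measured by more than 1 probe set, and these did not always follow one another. In a fit over 27826 probe sets, 54 of the 91 probe sets of the 33 chains were tested, 25 of them beside the one that stood for its gene. Of the 11 that belong to chains called in the tumours, 10 had the same sign, 7 were called the same way and none was called the opposite way. For LAMB1 the other probe set gave 0.41 for the tumours against parental and 1.96 for T2 against T3, next to 0.43 and 1.87. For ITGB4 the second probe set gave -0.82 and 1.39, while another, at 5.42 to 6.09, gave -0.3 with an adjusted p of 0.0856. The dimmest tested one, at 5.22 to 5.7, gave -0.38 (adjusted p = 0.0411) and, between T2 and T3, -0.03 ± 0.18 (adjusted p = 0.939). For ITGB2 a second gave 0.9, and another, which stayed between 6.1 and 6.54, gave -0.08 (adjusted p = 0.56).

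In several chains the probe sets of a gene disagreed. For ITGB5 the difference of T2 from T3 was -0.4 on the probe set that stood for the gene, -0.34 on a second (adjusted p = 0.0259) and 0.17 ± 0.1 on another (adjusted p = 0.272). For LAMC1 that difference was 0.28 ± 0.07 (adjusted p = 0.00664) on one and -0.16 ± 0.08 (adjusted p = 0.145) on the other, so that its call between T2 and T3 rests on 1 probe set. ITGB1, which was not called for the tumours against parental, was called on one of its other probe sets, at 0.25 (adjusted p = 0.0145), and not on another, at 0.12 (adjusted p = 0.0932). LAMA4 and ITGB3 differed by more. The second tested probe set of LAMA4 averaged 4.23 in the parental cells, 4.95 in T2, 6.65 in T3, 4.93 in T6 and 5.45 in T8. It rose by 1.26 ± 0.12 in the tumours (adjusted p = 9.87e-07) and differed by -1.7 ± 0.15 between T2 and T3 (adjusted p = 8.4e-07), where the probe set that stood for the gene gave -0.29 in both. Both put LAMA4 higher in the resistant pair, by 0.61 ± 0.11 and 0.42 ± 0.11. On the second probe set this came through T3 alone, since T2 at 4.95 lay beside T6 at 4.93 and below T8 at 5.45. A probe set of ITGB3 other than the one that stood for it averaged 5.15 in the parental cells, 5.83 in T2, 5.34 in T3, 6.8 in T6 and 5.5 in T8. It rose by 0.72 ± 0.11 (adjusted p = 8.5e-05) and was 1.29 ± 0.14 higher in T6 than in T8 (adjusted p = 3.68e-05), where the first gave -0.08 ± 0.11 and 0.29 ± 0.14. Which transcripts each probe set detects was not examined here.

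**Figure D5:**
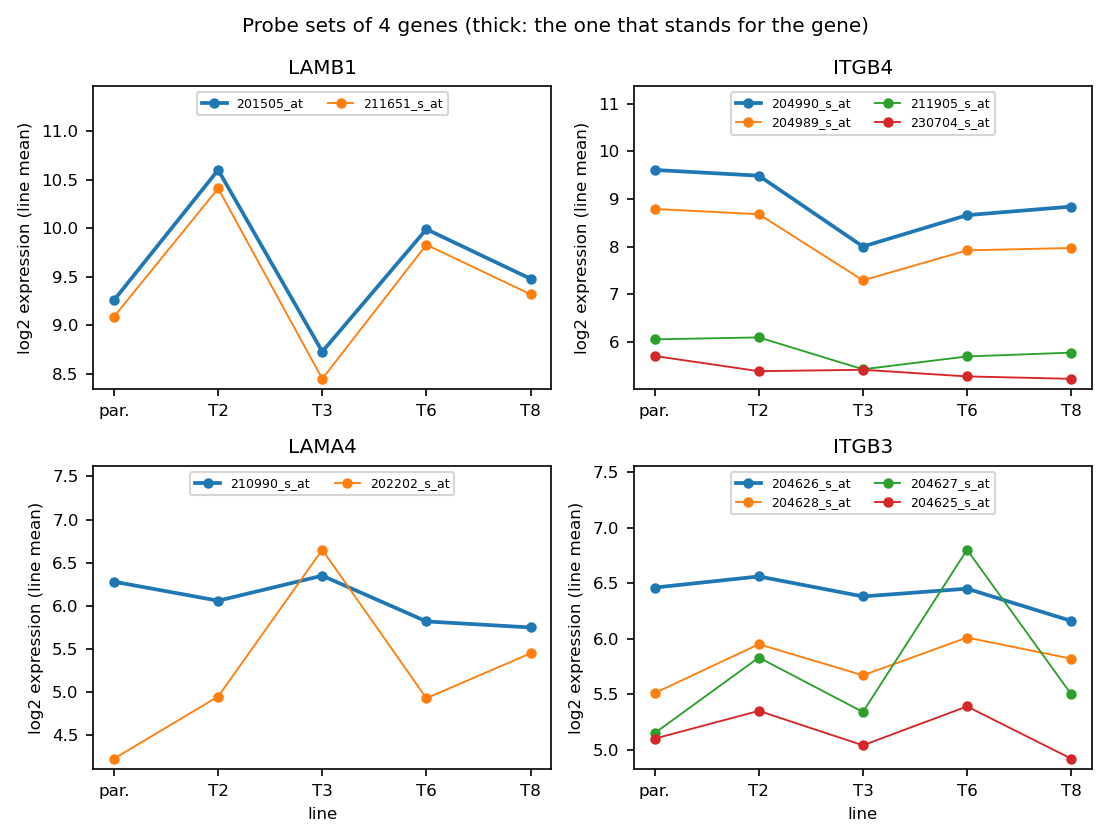
Mean log2 value of each line for the tested probe sets of LAMB1, ITGB4, LAMA4 and ITGB3; the thick line is the probe set that stands for the gene and each panel has its own axis. The LAMB1 lines run in parallel, while the second LAMA4 probe set peaks in T3 at 6.65 and an ITGB3 probe set peaks in T6 at 6.8.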

How the data were processed

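Total RNA of 5 lines was measured on 10 arrays, with labelling from 5 ug of RNA. The authors deposited log2 expression per probe set, a scale read from the range of the values, and affy, RMA and limma are named without versions per the submitters' processing notes. RMA corrects background, quantile-normalises over arrays and summarises probe sets, so a value is relative to its array. An array has no read depth; 14096 to 14640 genes per array reached log2 5.

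Of 54675 probe sets, 62 were controls, 41091 had 1 gene symbol, 1801 several and 11721 none; symbols were updated for 41037 through RefSeq, GRCh38.p14. Differences were fitted with limma 3.58.1 under R 4.3.3 (lmFit, eBayes with trend), with 1 coefficient per line (5 residual degrees of freedom, prior 9.39), or on line means (2, prior 2.73), and Benjamini-Hochberg adjusted over 14929 genes. The fit was tested on simulated data. Errors are standard errors of the moderated fit.

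The genes and lists were chosen with earlier results of these data known. Values on every array are given for chains called with a difference of at least 0.5 in tumours against parental, by response or between tumours, and for 6 fixed chains (ITGB1, ITGA6, ITGB4, ITGAV, ITGA5, LAMC1), and also for a few other chains and pathway genes, added after their values were seen. Of each other list at most 3 called genes per direction were named, and a few others (such as DST beside PLEC, ICAM1, ICAM2 and those in the order of the tumours) were named after their values were seen. Alternatives were other normalisations, filters, probe set rules, no trend, a block for the replicate number, and each array left out.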

Additional observations from a re-analysis of the deposited data

Results flagged for a closer look

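ITGB2 stood out in T8. The gap between the mean of T8 and the nearest other tumour was 0.986 of the range of the 4 tumour means, above Dixon's critical value for 4 values. It was the only 1 of 29 tested chains past that value, and a rule at this level passes some chains by chance. T8 measured 9.12 and 8.83, and the other tumours lay between 7.84 and 8.

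LAMB1 and LAMB3 moved in opposite directions in tumours of the same class. LAMB1 differed by 1.87 between T2 and T3, both resistant, with T2 above and T3 below the parental line on every array. LAMB3 differed by -1.39 between them, with T2 below and T3 above the parental line on every array. Both differences were tested over arrays.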

How the results depend on the processing

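Of 520 values of named chains under alternatives, 494 were counted as kept, 11 lost and 11 gained a call. Another 4 changed sign with a call before or after the change. A change of sign where neither value was called was counted as kept, so that 4 is not the number of all sign changes. These 4 came from probe sets: ITGB2 under its dimmest tested probe set was -0.08 for tumours against parental and 0.19 for the response, and LAMA4 for tumours against parental was 0.24 (adjusted p = 0.0481) as the mean over probe sets and 1.26 under its second.

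Without the probe sets that Affymetrix marks as shared between transcripts (s, x and a), 20 chains were left for testing; 1 was then called for the response over arrays, 5 in T2, 10 in T6 and 9 in T8 against parental, 6 between T2 and T3, and 6 among the tumours. With array medians centred, 3 were called between T6 and T8; the cause was not tested. With the tumour as replicate, 0 were called against parental.

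Leaving out each array in turn gave 13 to 16 chains for tumours against parental, 2 to 5 for the response over arrays, 0 to 0 with the tumour as replicate, 11 to 16 among the tumours, 8 to 10 in T2, 10 to 13 in T3, 10 to 16 in T6, 10 to 16 in T8, 9 to 12 between T2 and T3, and 3 to 6 between T6 and T8.

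The replicate numbers showed no uniform pairing of the arrays. Over 10 pairs of lines the correlations of deviations ran from -0.39 to 0.5, 4 of them over 0.1, so that some lines shared deviations. With the replicate number as a block 14 chains were called for tumours against parental and 3 for the response over arrays, and ITGAV had an adjusted p of 0.0573.

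The number of arrays limits precision, and signals near log2 5, such as LAMA1, ITGAM and ITGAX, lie close to background.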
